A study of Mus musculus with 6 samples.

Results

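The genes described here are 8 genes of cholesterol synthesis and its control, Hmgcs1, Idi1, Fdps, Fdft1, Sqle, Lss, Insig1 and Srebf2, chosen by symbol from the 22087 genes of the deposited table. All 8 were present and all 8 passed the filter on low counts that left 17759 genes for testing. They were measured by poly(A) RNA sequencing of mouse dorsal root ganglia, which hold the cell bodies of sensory neurons outside the spinal cord, at 3 months of age. The conditional knockout, called cKO below, has the genotype Kif2a fl/fl; Avil Cre and was represented by 3 libraries. The control, also 3 libraries, has the genotype Kif2a fl/fl without Cre, so both groups carry the loxP-flanked Kif2a alleles. Only the cKO carries Avil Cre, so loss of Kif2a and the presence of Cre cannot be told apart. Kif2a encodes a kinesin that depolymerises microtubules, and the series addresses its role in nociception. The advillin gene Avil directs Cre to sensory neurons, and the glia and other cells of the ganglion are not its target. Whether each library stands for its own animal is not stated in the labels, and p-values therefore cover only the variation among these libraries, part of which may be technical.

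Cholesterol is built from acetyl-CoA by way of mevalonate, isoprenoids, squalene and lanosterol. When sterol in the endoplasmic reticulum is low, the escort protein Scap carries the transcription factor SREBP2, the product of Srebf2, to the Golgi, where proteases release its active part to switch on nearly all enzymes of the pathway. When sterol is plentiful, Insig proteins hold Scap in the endoplasmic reticulum and the pathway is turned down. Schwann cells need much cholesterol for myelin, and satellite glia, which wrap the neuron cell bodies, are known for strong expression of the pathway. Ganglion RNA pools all these cells, so a lower number of cells of a type and less RNA per cell cannot be told apart.

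SREBP2 binds sterol regulatory elements, of which the classical SRE-1 is the best known, while CCAAT marks the usual site of its partner NF-Y. All letters were searched on both strands. The RefSeq promoter table (GRCm38.p6) held 5 of the 8 genes, Hmgcs1, Idi1, Lss, Insig1 and Srebf2. In the 250 bases before the RefSeq start, the full SRE-1 had 0 matches in these 5 genes and was present in 0.0731% of all windows. The shorter TCACCCCA shown here was kept after 10 spellings of the element had been searched in these promoters and their matches seen. Of the 9 other spellings, 6 matched Hmgcs1 alone, 1 (CACNCCAC, in 5.29% of all windows) matched Hmgcs1 and Insig1, and 2 (the full SRE-1 and a form of it with 1 free base) matched none of the 5, so the match in Srebf2 was found with TCACCCCA alone. TCACCCCA occurred once in Hmgcs1, 137 bases before the start, and once in Srebf2, 162 bases before it. It was present in 1.34% of the 32851 promoter windows in the table. Lss, Idi1 and Insig1 had 0 matches in this window. CCAAT was found in all 5 windows, against 33.8% of all windows, and did not overlap TCACCCCA. The promoters of 3 genes are shown because Hmgcs1 was the most abundant of the 8 genes, Srebf2 was the only one with a lower mean in the cKO, and Lss had the largest difference. All lie on the plus strand, each run ends at the RefSeq start or at the first GENCODE transcript, whichever comes first, and capitals mark TCACCCCA and CCAAT or their reverse complements. The runs are chr13:119690101-119690350 for Hmgcs1, chr15:82147019-82147180 for Srebf2 and chr10:76531355-76531587 for Lss.
Hmgcs1: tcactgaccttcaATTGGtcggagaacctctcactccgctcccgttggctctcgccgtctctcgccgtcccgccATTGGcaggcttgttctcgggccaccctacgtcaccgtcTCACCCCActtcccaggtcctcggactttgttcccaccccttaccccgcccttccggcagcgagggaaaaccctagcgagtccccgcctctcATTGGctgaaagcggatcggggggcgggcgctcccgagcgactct
Srebf2: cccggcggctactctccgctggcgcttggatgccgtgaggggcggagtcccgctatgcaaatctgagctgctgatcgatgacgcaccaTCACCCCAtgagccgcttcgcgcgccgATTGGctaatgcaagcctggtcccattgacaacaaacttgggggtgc
Lss: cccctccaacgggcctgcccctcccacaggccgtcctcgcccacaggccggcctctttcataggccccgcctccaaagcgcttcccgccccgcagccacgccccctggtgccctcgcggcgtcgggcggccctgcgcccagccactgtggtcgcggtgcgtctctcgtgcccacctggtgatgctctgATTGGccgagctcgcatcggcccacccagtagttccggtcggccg
A match describes letters in the window, and binding was not measured.

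Total counts were between 21683083 and 31626625 per library, and the least counted member value was 440 reads, for Fdps. Levels are given as CPM, the counts of a gene scaled to a TMM-adjusted library total of 1000000. Kif2a was at 69.8, 66.5 and 67.4 CPM in the cKO libraries and at 86.4, 80.4 and 90.0 CPM in control libraries, so the groups did not overlap, with an exact two-sided permutation p of 0.1, the smallest that 3 against 3 libraries allow. Its edgeR adjusted p was 0.9999, and the level over the whole gene includes cells without Cre. Avil was between 239 and 365 CPM in the cKO and between 562 and 593 CPM in control. The adjusted p of Avil was 0.444 in edgeR and 3.47e-05 in DESeq2. Libraries also differed in surrounding tissue. The sum of 6 skeletal muscle markers was 317 CPM in cKO replicate 1, 4.96 and 5.78 CPM in the other cKO libraries, and between 49.8 and 209 CPM in control.

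None of the 8 genes passed the edgeR quasi-likelihood test, in which each had a Benjamini-Hochberg adjusted p of 0.9999 over all 17759 genes. That test called 0.0225% of all genes, namely 4, all lower in the cKO, while 829 genes had an unadjusted p under 0.05. DESeq2 called 31 genes, or 0.175%, and both DESeq2 and limma-trend called 0 of the 8, of which 1, Lss, had an unadjusted edgeR p under 0.05. The log2 fold change of cKO over control was above 0 for 7 members and below 0 for Srebf2, with a median of 0.104. Over all genes tested 51.6% were above 0, 48.4% were below 0 and the median was 0.006. Library by library the 8 genes together summed to 1715, 1652 and 1579 CPM in cKO replicates 1 to 3 and to 1608, 1593 and 1514 CPM in control. The cKO mean was 1649 ± 68.4 CPM and the control mean 1572 ± 50.4 CPM (SD, n = 3 each), and the ranges overlapped because cKO replicate 3 lay below control replicates 1 and 2.

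**Figure D1:**
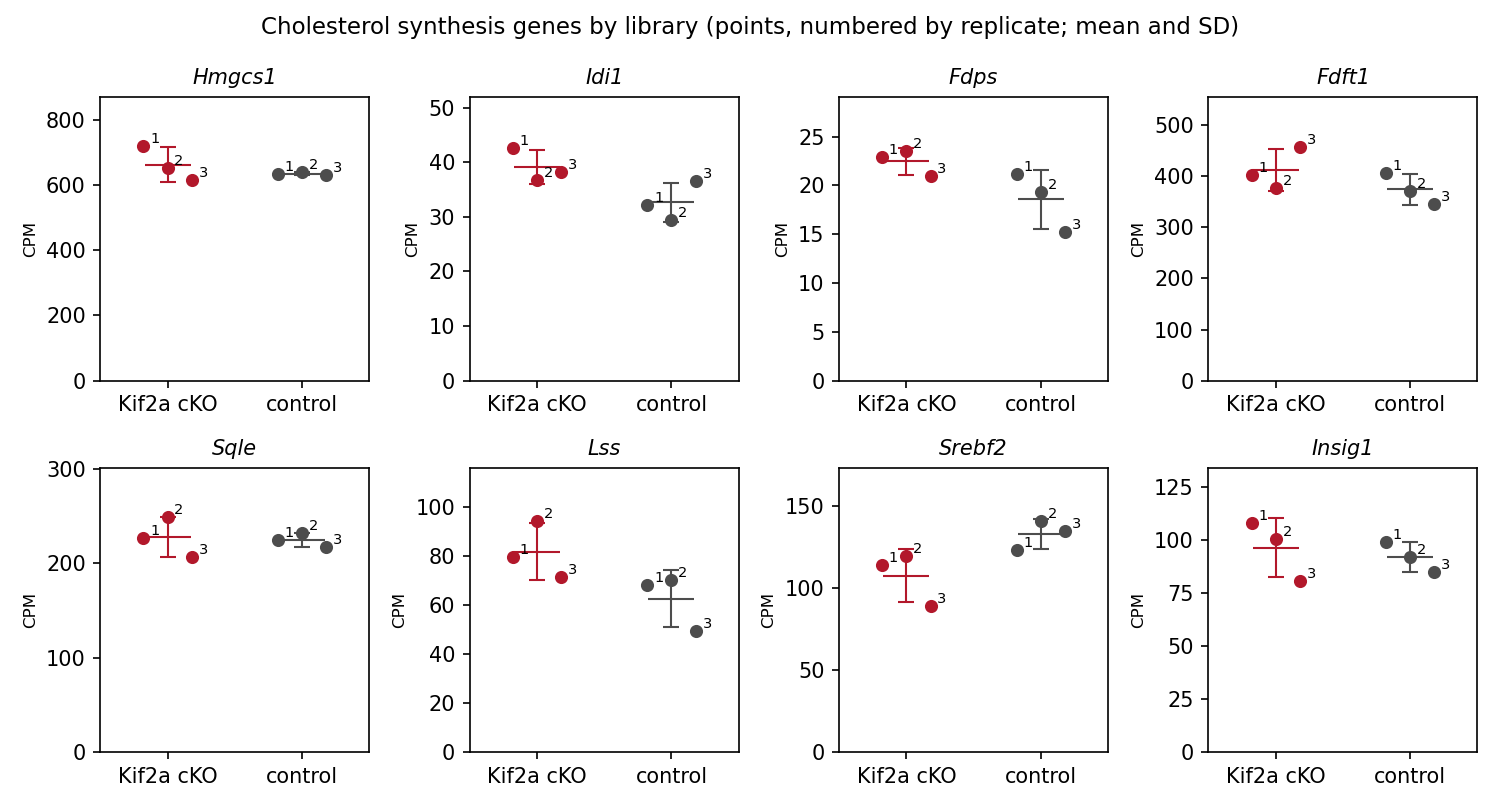
CPM of the 8 genes (y axes, from 0) in the 3 Kif2a cKO and 3 control libraries, as points numbered by replicate, with the group mean and SD. Idi1 and Lss lay above all control libraries in all 3 cKO libraries, Srebf2 lay below them, and the other 5 genes overlapped.

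Of the 8 genes, Hmgcs1 (chromosome 13, 119690379 to 119708260, plus strand), the cytosolic HMG-CoA synthase, acts earliest in the pathway, upstream of mevalonate. It was at 720.1, 651 and 614 CPM in cKO replicates 1 to 3 and at 634, 639 and 631 CPM in control. The cKO libraries thus spanned the control libraries, which differed from each other by very little: the coefficient of variation was 8.1% in the cKO and 0.6% in control. Its log2 fold change of 0.06 ± 0.12 (SE) had a 95% interval from -0.22 to 0.34, and was 0.008 without cKO replicate 1 and 0.122 without cKO replicate 3. Hmgcs1 alone made up 40.2% of the CPM of the 8 genes on average. Gm48342 overlaps Hmgcs1 on the opposite strand.

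The isoprenoid steps are carried out by Idi1 and Fdps. Idi1 (chromosome 13, 8885501 to 8892451, plus strand) encodes the isomerase that interconverts the isopentenyl and dimethylallyl units. It was at 42.7, 36.7 and 38.2 CPM in the cKO libraries and at 32.1, 29.4 and 36.5 CPM in control. The groups did not overlap, but the lowest cKO library and the highest control library were nearly equal. For Idi1 edgeR gave a log2 fold change of 0.26 ± 0.12 (SE), a 95% interval from -0.02 to 0.54 and an unadjusted p of 0.0633, with an exact permutation p of 0.1. Gm48574 overlaps Idi1 on the opposite strand. Fdps (chromosome 3, 89093588 to 89101959, minus strand) encodes farnesyl diphosphate synthase, whose product also feeds protein prenylation. It was at 22.9, 23.5 and 20.9 CPM in the cKO libraries and at 21.2, 19.3 and 15.2 CPM in control. Control replicate 3 was the lowest and control replicate 1 just exceeded cKO replicate 3. Its log2 fold change was 0.28 ± 0.15 (SE), and without control replicate 3 it was 0.16. Gm43738 overlaps Fdps on the same strand, so reads there could have been assigned to either or to none.

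Fdft1 and Sqle commit carbon to sterols. Fdft1 (chromosome 14, 63145150 to 63179578, minus strand), squalene synthase, was at 401, 378 and 457 CPM in the cKO libraries and at 405, 371 and 346 CPM in control. Its highest value, unlike that of the other 5 enzymes, was in cKO replicate 3, and the groups overlapped. This amounted to a log2 fold change of 0.14 ± 0.13 (SE), or 0.069 without cKO replicate 3. Its end overlaps Ctsb on the opposite strand. Sqle (chromosome 15, 59315077 to 59331192, plus strand), squalene epoxidase and a second control point of flux, was at 227, 249 and 207 CPM in the cKO libraries and at 224, 232 and 217 CPM in control. Both the highest and the lowest of the 6 values were cKO libraries. Between the groups Sqle differed by a log2 fold change of 0.02 ± 0.12 (SE), with a 95% interval from -0.25 to 0.29, which is a fold between 0.842 and 1.22.

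Lss (chromosome 10, 76531588 to 76557138, plus strand), lanosterol synthase, which closes the sterol rings, had the largest difference of the 8. It was at 79.6, 94.6 and 71.6 CPM in the cKO libraries and at 68.3, 70.4 and 49.3 CPM in control. All cKO libraries were above all control libraries, cKO replicate 3 only just. The cKO mean was 81.9 ± 11.7 CPM and the control mean 62.7 ± 11.6 CPM (SD, n = 3 each), or 131% of control. In edgeR the log2 fold change was 0.39 ± 0.16 (SE) and the unadjusted p 0.0422, beside an exact permutation p of 0.1. In the authors' deposited table Lss had a log2 fold change of 0.39 and a false discovery rate of 0.194. Without control replicate 3 the edgeR log2 fold change was 0.25. An antisense gene, 4930483K19Rik, overlaps Lss, and the reads of the pair cannot be separated unless counting used strand.

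The 2 regulators had log2 fold changes of opposite sign, but their 95% intervals overlapped. Srebf2 (chromosome 15, 82147181 to 82205379, plus strand), which encodes SREBP2 and hosts the microRNA gene Mir33, was at 114, 119 and 88.8 CPM in cKO replicates 1 to 3 and at 123, 140.5 and 135 CPM in control. Every cKO library was below every control library, and cKO replicate 3 was the lowest by far. The cKO mean was 107 ± 16.3 CPM and the control mean 133 ± 8.87 CPM (SD, n = 3 each), or 80.9% of control. Srebf2 had a log2 fold change of -0.31 ± 0.14 (SE), a 95% interval from -0.62 to 0.004, an unadjusted edgeR p of 0.0523 and an exact permutation p of 0.1, and its log2 fold change was -0.175 without cKO replicate 3. The authors' deposited table gives Srebf2 a false discovery rate of 0.273. Gm49502 overlaps Srebf2 on the same strand, so reads there could have been assigned to either or to none. Insig1 (chromosome 5, 28071363 to 28078662, plus strand), both an inhibitor of SREBP2 processing and a target of it, was at 108, 100.5 and 81.0 CPM in the cKO libraries and at 99.1, 92.1 and 85.0 CPM in control. The groups overlapped, with the highest and the lowest value in the cKO, and the log2 fold change was 0.07 ± 0.13 (SE).

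Groups without overlap were thus seen for 2 of 8 members above control and 1 of 8 below. Among all genes tested 3.96% did not overlap with the cKO higher and 4.70% with the cKO lower.

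Srebf2 and the other 7 genes, all known targets of SREBP2, were also set side by side within each library. Each gene's log2 CPM was set relative to its own mean over the 6 libraries. The mean deviation of the other 7 genes was 0.14, 0.12 and -0.005 in cKO replicates 1 to 3 and -0.008, -0.06 and -0.19 in control. That of Srebf2 was -0.06, 0.007 and -0.42 in the cKO and 0.05, 0.24 and 0.18 in control. The difference, targets minus Srebf2, was 0.20, 0.12 and 0.41 in the cKO libraries and -0.06, -0.30 and -0.37 in control. These are differences between deviations, set up after Srebf2 had been seen to be lower in every cKO library, and their separation by group in part restates that observation. In cKO replicate 3 and control replicate 1 the mean deviations of the other 7 genes were nearly equal, though single genes differed. No p is given for the differences between targets and Srebf2.

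**Figure D2:**
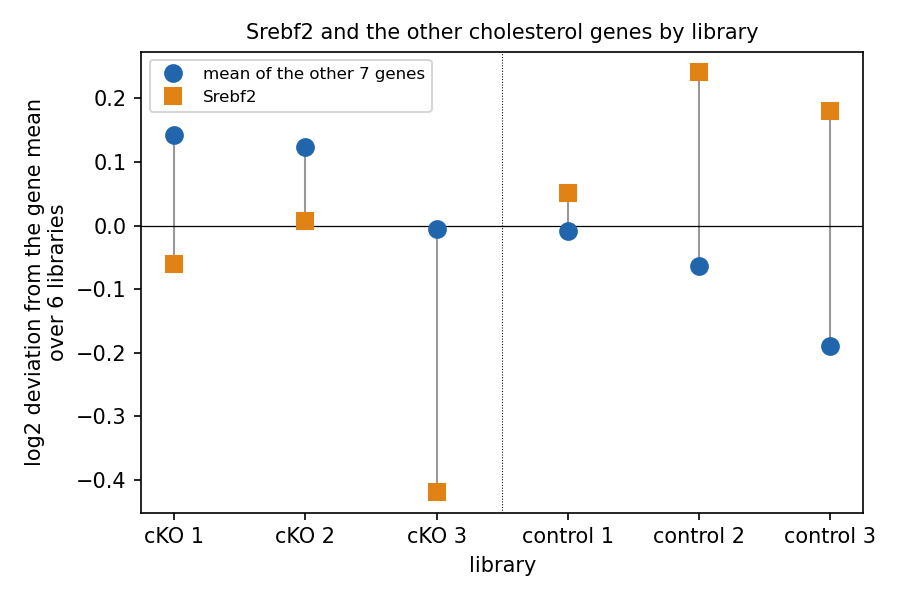
Deviation of log2 CPM from the gene's own mean over 6 libraries (y axis) for Srebf2 (squares) and the mean of the other 7 genes (circles), by library (x axis). The circle lies above the square in the 3 cKO libraries, by 0.12 to 0.41, and below it in the 3 control libraries.

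Levels between genes were compared per kilobase of the principal GENCODE transcript, a length chosen over the union of all exons after both sets of values had been seen. Hmgcs1 was highest at 191 ± 15.6 CPM per kb in the cKO and 183 ± 1.13 CPM per kb in control. Fdft1 followed at 111 ± 11.1 in the cKO and 101 ± 8.07 in control, then Sqle at 82.5 ± 7.63 and 81.4 ± 2.79, and Insig1 at 35.8 ± 5.17 and 34.1 ± 2.61 CPM per kb (SD, n = 3 each, cKO before control). For each of these 4 the libraries did not overlap with those of the next gene in either group. Srebf2 was at 21.1 ± 3.21 CPM per kb in the cKO, where its range overlapped that of Lss at 17.6 ± 2.50, and at 26.1 ± 1.75 CPM per kb in control, where it lay above Lss at 13.4 ± 2.49. Fdps, at 16.2 ± 0.987 CPM per kb in the cKO and 13.4 ± 2.20 in control, was not separated from Lss in either group. Idi1 was lowest, at 12.9 ± 1.03 CPM per kb in the cKO, below the range of Fdps, and 10.8 ± 1.18 in control, overlapping it. This lower end of the order depended on the length used. Per kilobase of union exons, Idi1 was at 11.2 ± 0.89 CPM in the cKO and 9.32 ± 1.02 CPM in control, above Lss at 7.59 ± 1.08 in the cKO and 5.81 ± 1.08 in control. Fdps was then lowest, at 5.34 ± 0.324 CPM per kb in the cKO and 4.41 ± 0.721 in control, and the order of the 5 highest genes was as before.

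The rest of the pathway was read from 16 other enzymes. None passed the edgeR test over all genes, limma-trend called 0 and DESeq2 called 1, and 3 had an unadjusted edgeR p under 0.05, against 4.67% of all genes. In this list 12 had a log2 fold change above 0 and 4 below, with a median of 0.174, beside 51.6% of all genes above 0. Groups did not overlap for 5 of 16, all with the cKO higher, beside 3.96% of all genes with the cKO higher and 4.70% with the cKO lower. Acat2, the cytosolic thiolase that makes acetoacetyl-CoA for Hmgcs1, was at 123, 134 and 135 CPM in the cKO libraries and at 98.6, 97.3 and 94.3 CPM in control. Its cKO libraries were all well above its control libraries. Acat2 had a log2 fold change of 0.44 ± 0.10 (SE), an edgeR adjusted p of 0.825 and a DESeq2 adjusted p of 0.0445, and the lowest adjusted p over the other alternatives was 0.144. Mvd, which decarboxylates mevalonate diphosphate just before Idi1, had a log2 fold change of 0.37 ± 0.13 (SE) and means of 58.4 and 45.3 CPM in the cKO and control. Nsdhl, a late enzyme that removes carbon groups from the sterol ring, had a log2 fold change of 0.31 ± 0.12 (SE) and means of 154 and 125 CPM in the cKO and control. The 16 enzymes together summed to 1911, 1958 and 1886 CPM in the cKO libraries and to 1815, 1768 and 1760 CPM in control, so every cKO sum was above every control sum. Of the 22 enzymes, the 6 members included, 18 had a log2 fold change above 0, and 17 to 19 under the alternatives. The 4 below 0 included Ggps1, which diverts farnesyl diphosphate to geranylgeranyl diphosphate, and the late enzymes Sc5d and Dhcr7, named here after their values were seen. Ggps1 had a log2 fold change of -0.16, Sc5d one of -0.12 and Dhcr7 one of -0.06.

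**Figure D3:**
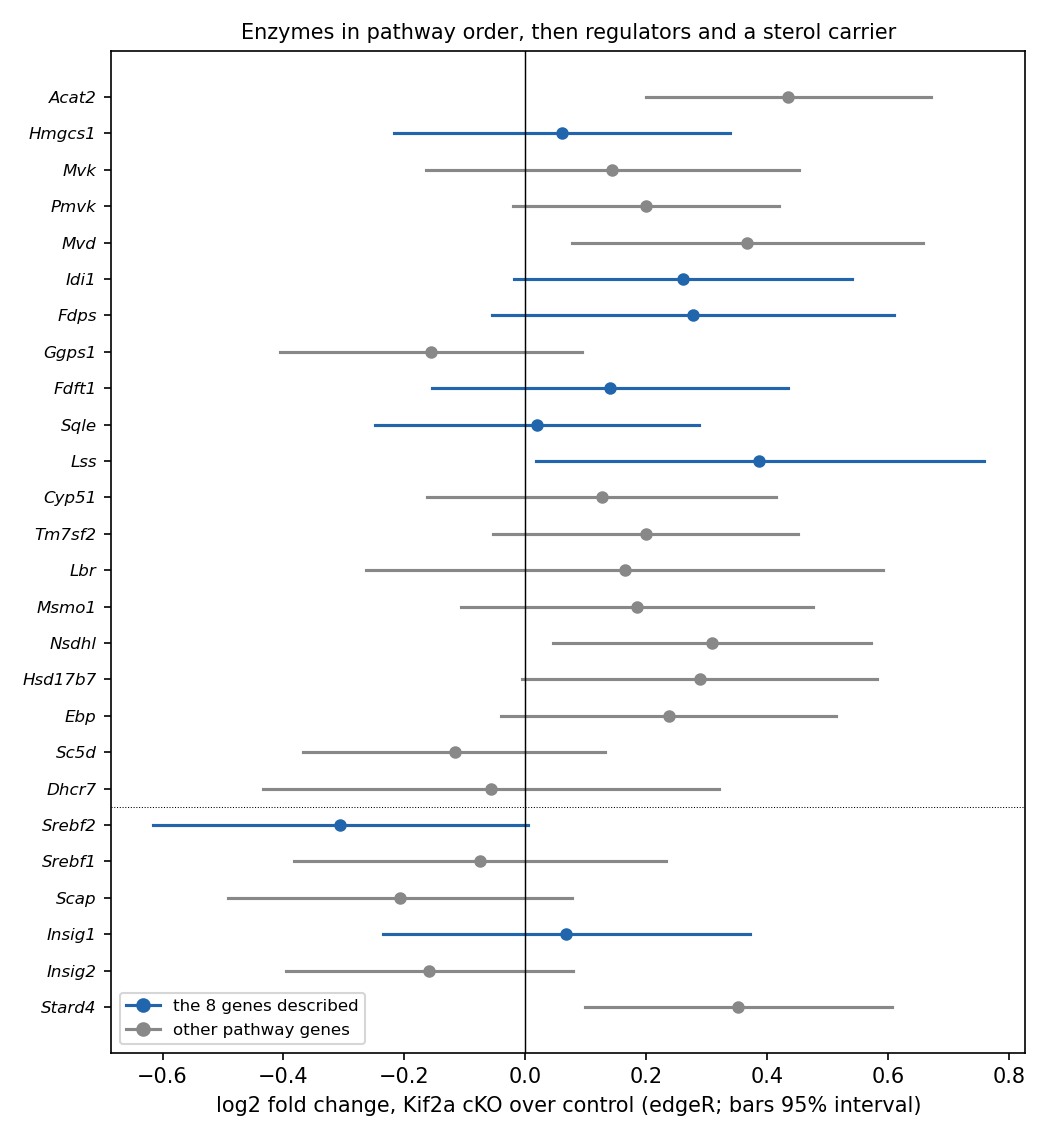
Log2 fold change of Kif2a cKO over control (x axis) with its 95% interval from edgeR, for 20 of the 22 enzymes in pathway order from top to bottom and, under the dotted line, regulators and the sterol carrier Stard4; the 8 genes described are in blue. Most enzymes lie right of 0 by less than 0.5, while Srebf2, Scap and Insig2 lie left of 0, and all 8 blue genes failed the test over all genes.

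Genes of sterol sensing differed by little. This list of 10 held Srebf1 and genes with roles in SREBP transport, its cleavage or sterol-driven degradation. Of the 10 genes, 10 had a log2 fold change below 0 with TMM scaling, beside 48.4% of all genes. That number was 7 with upper-quartile scaling and 5 without cKO replicate 3. The median was -0.049, from -0.103 without cKO replicate 1 to -0.001 without cKO replicate 3, and 0 passed edgeR, DESeq2 or limma-trend or had an unadjusted edgeR p under 0.05. Scap, the SREBP escort, had a log2 fold change of -0.21 ± 0.13 (SE), with means of 31.7 and 36.6 CPM in the cKO and control. Insig2, the companion of Insig1 that is not driven by SREBP2, was at 40.6, 39.4 and 42.2 CPM in the cKO libraries and at 42.4, 45.5 and 48.5 CPM in control, which did not overlap but nearly met. Srebf1, which encodes the SREBP of fatty acid synthesis, was at 49.7, 39.7 and 37.1 CPM in the cKO libraries and at 40.6, 46.9 and 45.8 CPM in control, with a log2 fold change of -0.07 ± 0.14 (SE). Its groups overlapped fully.

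Among 10 genes of sterol uptake and transport, 5 had a log2 fold change above 0 and 5 below, with a median of 0.035, which was -0.017 without control replicate 1 and -0.012 without cKO replicate 2. Of these 0 passed edgeR, DESeq2 or limma-trend, and 2 had an unadjusted edgeR p under 0.05, against 4.67% of all genes. Stard4, a soluble sterol carrier and SREBP2 target, was at 95.5, 104.5 and 89.2 CPM in the cKO libraries and at 76.8, 79.9 and 70.0 CPM in control. Its groups did not overlap, and edgeR gave a log2 fold change of 0.35 ± 0.11 (SE) at an adjusted p of 0.9999. Scarb1, the receptor for high-density lipoprotein, had a log2 fold change of 0.38 ± 0.13 (SE), and Gramd1a, a sterol transfer protein, one of 0.20 ± 0.13 (SE).

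Of the genes of 3 neighbouring pathways 0 passed edgeR, DESeq2 or limma-trend. Over all genes tested 51.6% had a log2 fold change above 0, 48.4% below 0 and 4.67% an unadjusted edgeR p under 0.05. In efflux and oxysterol metabolism 8 of 12 genes had a log2 fold change above 0, with a median of 0.048 and 1 unadjusted edgeR p under 0.05. That median was -0.075 without cKO replicate 1 and -0.01 without control replicate 1. Ch25h, which makes 25-hydroxycholesterol, an oxysterol that holds SREBP2 inactive, was at 1.42, 1.86 and 1.71 CPM in the cKO libraries and at 0.501, 1.10 and 1.03 CPM in control. Its groups did not overlap at these low levels, and its edgeR adjusted p was 0.9999. The sterol exporter Abcg1 had a log2 fold change of -0.20 ± 0.11 (SE), and the neuronal 24-hydroxylase Cyp46a1 one of -0.27 ± 0.19 (SE). In fatty acid synthesis 6 of 12 genes were above 0 and 6 below, with a median of 0.026 and 1 unadjusted edgeR p under 0.05, and the median was below 0 without cKO replicate 1 (-0.015), cKO replicate 2 (-0.047) or control replicate 1 (-0.026). Acsl3, which activates fatty acids, had a log2 fold change of 0.26 ± 0.10 (SE), the elongase Elovl5 one of 0.19 ± 0.12 (SE) and Fasn, fatty acid synthase, one of -0.18 ± 0.16 (SE). In the isoprenoid branch, 5 of 10 were above 0 and 5 below, with a median of -0.019, or 0.002 without control replicate 3, and 0 unadjusted edgeR p under 0.05. Dhdds, of dolichol synthesis, had a log2 fold change of -0.20 ± 0.13 (SE), Pggt1b, of geranylgeranylation, one of 0.15 ± 0.10 (SE) and Coq2, of ubiquinone synthesis, one of -0.25 ± 0.18 (SE).

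Markers of glia and neurons were summed in each library. The sum of the 8 genes in the highest library was 1.13 times that in the lowest. For 11 myelin genes this ratio was 2.40 and for 7 satellite glia markers 1.37. Hmgcs1 and Fdft1 made up 40.2% and 24.4% of the sum of the 8 on average, so it hides the spread of single members. Lss, for example, ran from 49.3 CPM in control replicate 3 to 94.6 CPM in cKO replicate 2. Myelin genes, among them Mbp and Pmp22, summed to 9809, 4090 and 5267 CPM in cKO replicates 1 to 3 and to 7710, 6031 and 7492 CPM in control. Satellite glia markers, among them Fabp7 and Glul, summed to 1980, 1461 and 1831 CPM in the cKO and to 1599, 1767 and 1995 CPM in control. Neuron markers, led by Nefl, Stmn2 and Nefh, summed to between 13023 and 18753 CPM in the cKO and between 14373 and 17842 CPM in control. Of the 7 satellite glia markers 2 had a log2 fold change above 0 and 5 below, with a median of -0.074. Of the 11 myelin genes 3 were above 0 and 8 below, with a median of -0.063. Over all genes 48.4% were below 0. For the 5 markers shared by peripheral glia, among them S100b and Cdh19, all 5 log2 fold changes were above 0, beside 51.6% of all genes. Their median was 0.223, with sums between 1522 and 1900 CPM in the cKO and between 1470 and 1707 CPM in control. Cdh19 averaged 113 CPM in the cKO and 83.4 CPM in control, with a log2 fold change of 0.43 ± 0.16 (SE) and an edgeR adjusted p of 0.9999. The part of these markers in the differences of the 8 genes was not tested.

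Other tissues also moved between libraries, and no marker gene passed edgeR over all genes. Macrophage markers, led by C1qa, C1qc and Csf1r, summed to between 104 and 314 CPM in the cKO and between 151 and 181 CPM in control. The 8 tested lymphocyte markers, led by Cd79a, Cd79b and Ms4a1, summed to between 14.2 and 83.6 CPM in the cKO and between 21.9 and 42.3 CPM in control. All 12 interferon-stimulated genes, among them Gbp2 and Gbp7, had log2 fold changes above 0, beside 51.6% of all genes. Of these 12, 6 had an unadjusted edgeR p under 0.05, against 4.67% of all genes. For 3 of them the groups did not overlap with the cKO higher, against 3.96% of all genes. Their sums were between 122 and 252 CPM in the cKO and between 114 and 128 CPM in control. Fibroblast markers, led by Dcn, Lum and Col1a2, summed to between 962 and 3753 CPM in the cKO and between 1651 and 2087 CPM in control. Endothelial markers, led by Pecam1, Emcn and Flt1, summed to between 106 and 171 CPM in the cKO and between 104 and 132 CPM in control. Of the markers of central nervous system glia 6 of 9 were tested, led by Mobp, Slc1a2 and Aqp4. They summed to between 26.8 and 85.5 CPM in the cKO and between 86.5 and 228 CPM in control, ranges that nearly met. Of the 6, 5 had a log2 fold change below 0, beside 48.4% of all genes. An unadjusted edgeR p under 0.05 was seen for 4 of the 6, against 4.67% of all genes. Adipocyte markers, led by Cfd, Adipoq and Cidec, summed to between 3.43 and 57.4 CPM in the cKO and between 7.17 and 26.6 CPM in control. Muscle markers, led by Myh4, Acta1 and Tnnt3, were highest in cKO replicate 1. Their part in the sterol gene differences was not tested. cKO replicate 1 held the highest Hmgcs1, Idi1 and Insig1, and cKO replicate 2 the highest Sqle, Fdps and Lss. Fdft1 was highest in cKO replicate 3 and Srebf2 in control replicate 2.

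**Figure D4:**
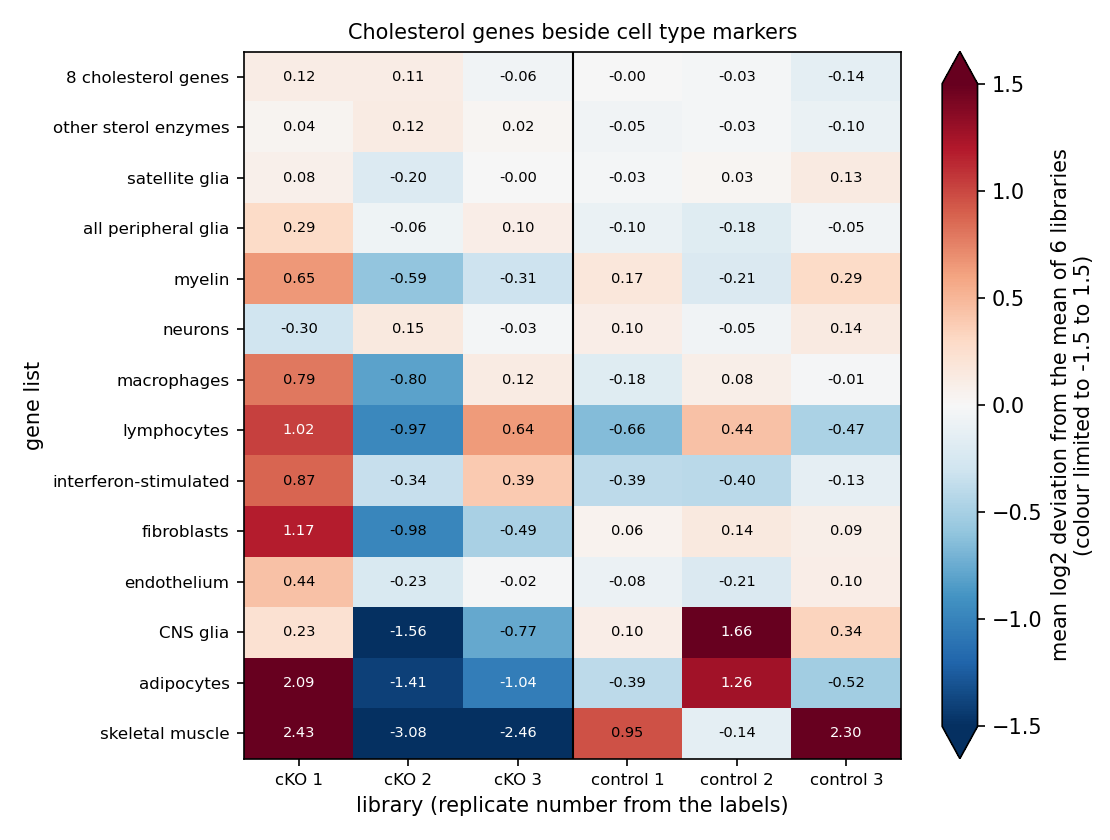
Mean log2 deviation from the 6-library mean (colour and printed value, colour limited at -1.5 and 1.5) for each gene list (rows) in each library (columns). The mean over the 8 cholesterol genes stayed between -0.14 and 0.12. The mean over the myelin list ran from -0.59 to 0.65 and that over muscle markers from -3.08 to 2.43.

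Genes with a pattern most like the mean of the 8 were sought by the root mean squared difference of log2 deviations over the 6 libraries, among 12083 genes with a mean of at least 5 CPM. The nearest were Ssh2, at 0.0186, Bicra, at 0.0257, Abitram, at 0.0267, Snapc3, at 0.0297, and Mtmr12, at 0.0314, and none of the 5 passed the edgeR test. Measured the same way against the mean of all 8, the members themselves lay between 0.063 for Hmgcs1 and 0.242 for Srebf2. The 5 nearest genes were the closest of 12083, whereas the members were chosen by name. Their values therefore cannot be ranked against each other.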

How the data were processed

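For 6 libraries the authors deposited raw counts, whole reads for each gene symbol, per the file headers. The tools cutadapt, STAR and DESeq2 and the build mm10 are named in the submitters' processing notes, without versions; the counter and its strand setting are not stated there. The deposited normalized signal, the regularized log2 values, the p-value and the fdrtool rate per gene are the authors' own, and only the raw counts entered tests. Counts were filtered by filterByExpr (minimum count 10), scaled by TMM and tested with edgeR 4.0.16 in R 4.3.3, using a two-sided quasi-likelihood F test with robust dispersions, no covariate and Benjamini-Hochberg adjusted p under 0.05. Standard errors come from the F statistic. Alternatives used DESeq2 1.42.0, limma 3.58.1, 3 scalings, 2 filters, the replicate number as a block, and left-out libraries. Named were the 8 members, Srebf1, Insig2, Kif2a, Avil, genes passing the test and up to 3 further per list of smallest p (for marker lists, of highest CPM), and the 5 most like genes; some genes that this rule takes are not reported here, and other genes named were chosen after their values were seen. Members and lists were chosen with earlier results of these data known. Positions and lengths come from GENCODE M21 (GRCm38).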

Additional observations from a re-analysis of the deposited data

How the results depend on the processing

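Under 15 alternatives for each of the 8 genes, 117 of 120 values kept their direction and all 120 stayed short of the threshold. The exceptions were Sqle without cKO replicate 2 (-0.045) and Insig1 without cKO replicate 1, alone or together with control replicate 2 (-0.008 in both fits). With 1 library left out, Sqle ran from -0.045 to 0.094, Insig1 from -0.008 to 0.19 and the median of the 8 from 0.08 to 0.161. Calls over all genes, 4 in the edgeR fit, numbered 31 with DESeq2, 25 without control replicate 2 and cKO replicate 1, 2 among genes averaging 5 CPM or more, and 0 when replicate numbers formed a block. They numbered 10, 13 and 0 without cKO replicates 1, 2 and 3, 1 without control replicate 1 and 1 without control replicate 2. Same-numbered libraries did not deviate together (r from -0.247 to -0.13 across genes). With 3 libraries a group, these values cannot settle whether the numbers pair the samples. The block called 0 of the 8 genes. DESeq2 called 1 other sterol enzyme, Acat2. The isoprenoid median was 0.019 with upper-quartile scaling, 0.006 with library totals alone and 0.007 among genes averaging 5 CPM or more. The fatty acid median was -0.006 with limma-trend and -0.007 with the block. Without control replicate 2 and cKO replicate 1 it was -0.028, the efflux median was -0.077, Idi1 was at 0.136, Cyp46a1 at -0.166, Gramd1a at 0.325 and Coq2 at -0.011. With 1 library left out, Srebf1 ran from -0.197 to 0.019, highest without cKO replicate 3. Coq2 ran from -0.414 (without cKO replicate 3) to -0.099 (without control replicate 2), Fasn from -0.356 (without cKO replicate 2) to -0.038 (without cKO replicate 3), Dhdds from -0.344 to -0.109 on leaving out the same libraries, Gramd1a from 0.073 (without cKO replicate 2) to 0.304, and Insig2 from -0.208 to -0.101 (without control replicate 3). The cause was not tested. The 95% intervals of the 8 genes reached folds from 0.652 to 1.69, a precision set by 3 libraries a group.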
